A study of Mus musculus with 21 samples.

Results

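This account covers 10 genes that govern the G1 phase of the cell cycle and its entry into S phase: the D-type cyclins Ccnd1, Ccnd2 and Ccnd3, the E-type cyclins Ccne1 and Ccne2, the Cdk inhibitors Cdkn1a (p21), Cdkn1b (p27) and Cdkn2c (p18), the retinoblastoma gene Rb1 and the transcription factor gene Myc. They were chosen by name, not by a threshold, and they make up 10 of the 25067 genes of the table. The choice was made with earlier results of these data known. For each gene the transcript with the highest mean count was used, and all 10 passed the filter on low counts. The cells were bone marrow-derived macrophages of male C57Bl6/J mice aged 6 to 12 weeks, either wild type (WT) or labelled as lacking Nur77, the nuclear receptor encoded by Nr4a1. Marrow had been grown for 7 days in L929-conditioned medium, a source of the macrophage growth factor CSF1, and the cells were then reseeded. The groups were WT without lipopolysaccharide (LPS, a bacterial wall component that activates macrophages), WT after 4 h and after 18 h of 100 ng/ml LPS, and labelled Nur77-KO at the same 3 times. Each time had 4 WT libraries, numbered 1 to 4, and 3 labelled-KO libraries, numbered 2 to 4.

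A cell commits to division in G1. D-type cyclins carry growth-factor signals to Cdk4 and Cdk6, E-type cyclins then activate Cdk2, and both kinases phosphorylate the retinoblastoma protein, which releases E2F factors that switch on S phase genes. The Cip/Kip inhibitors p21 and p27 bind and restrain cyclin-Cdk2 complexes, and INK4 inhibitors such as p18 bind Cdk4 and Cdk6 directly. Myc drives growth and cyclin expression, and CSF1 is known to induce Ccnd1 and Myc in macrophages, while LPS is known to stop macrophage division and to induce p21.

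With 1 transcript kept per gene, totals ran from 12301504 to 29650081 counts per library. Levels are given as CPM (counts scaled to a common library size with TMM factors), and differences as log2 fold changes with standard errors (SE). Calls rest on edgeR's quasi-likelihood test over 12529 genes, with a Benjamini-Hochberg adjusted p below 0.05. Nothing in the labels says that the numbered libraries came from separate mice, so the spread behind each p-value may be technical. In bulk cultures, fewer cells of a type and less RNA per cell cannot be told apart. All 12 macrophage markers were present, with summed levels of 13921 to 26456 CPM. The targeted gene, Nr4a1, was at 13.4 to 16.2 CPM in WT libraries before LPS and at 12.2 to 12.4 CPM in labelled-KO ones. At 4 h it was at 1.30 to 7.25 and 0.531 to 1.21 CPM, and at 18 h at 0.965 to 1.33 and 2.102 to 3.48 CPM, where every labelled-KO library was above every WT library, against the label. The direction of each genotype difference therefore rests on the labels alone. Labelled-KO libraries carry the genotype tag cre, and the sources used here do not give the deleted exons, the promoter of a Cre or the cells it acts in. WT library 1 stood apart from the other WT libraries at 0 h and at 4 h, with a chi-square per degree of freedom over genes of 28.8 to 33.7 and 43.7 to 69.2 in its pairs, against 8.12 to 13.9 and 6.99 to 13.2 in the others. Without it at 0 h no member lost or gained a call, and without it at 4 h Ccne1 gained a call between genotypes at 4 h (0.81) and Ccnd1 lost that of a different response at 4 h (0.50). TMM factors lay between 1.40 and 1.47 before LPS, between 0.699 and 0.762 at 4 h and between 0.853 and 1.03 at 18 h. With them the log2 fold change from 0 to 4 h, as a median over all genes, was -0.17 in WT and -0.14 in labelled-KO cells, and with library totals and no factors it was -1.15 and -1.10, so a change over time is read relative to that shift.

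Before LPS, p21 was the most abundant of the 10 transcripts per kilobase in both genotypes. In WT libraries the mean levels in CPM per kb were 66.5 for Cdkn1a, 25.7 for Ccnd1, 25.6 for Rb1 and 21.4 for Cdkn1b, and the ranges of the last 3 overlapped from one to the next. The other 6 members lay lower, from 5.91 for Ccnd3 through Cdkn2c, Myc, Ccne2 and Ccnd2 down to 1.16 for Ccne1, with Ccnd3 and Cdkn2c, Myc and Ccne2, and Ccnd2 and Ccne1 overlapping as neighbours. At 4 h of LPS the top of the order was Cdkn1a at 1627 and Ccnd2 at 106 CPM per kb in WT cells, far above Ccnd1 at 15.1, and Cdkn2c was the lowest at 0.895. By 18 h the order in WT cells was Cdkn1a at 141, Ccnd1 at 64.6, then Rb1, Ccnd2 and Ccnd3 at 20.3, 19.9 and 19.4, which overlapped. In labelled-KO cells before LPS, Ccnd1 stood at 10.8 CPM per kb, below Rb1 at 27.4 and Cdkn1b at 17.7.

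**Figure D1:**
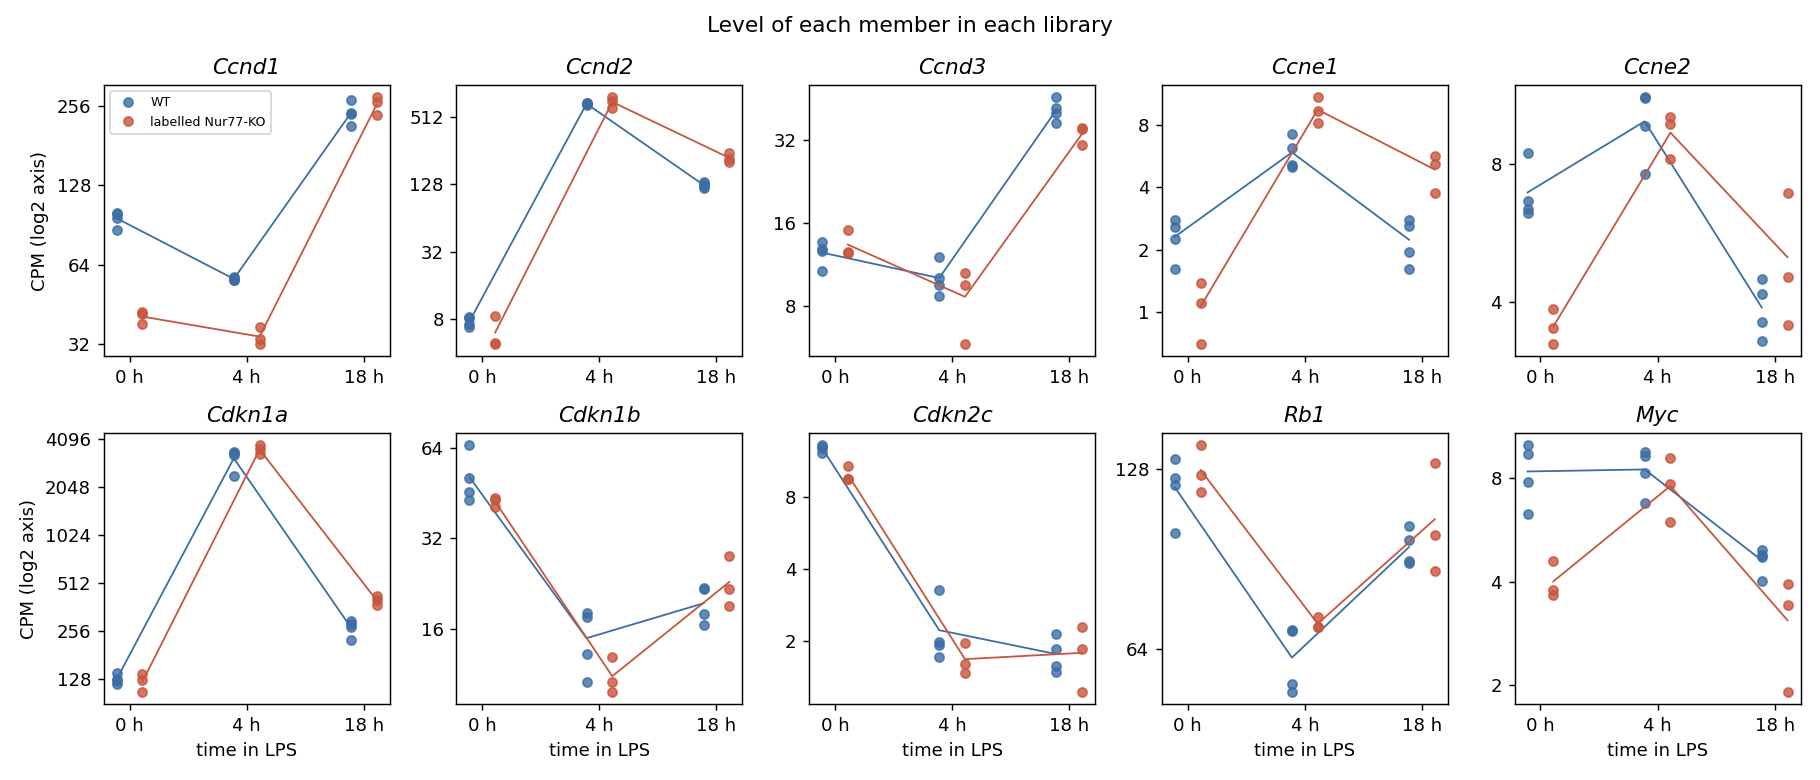
Level of each of the 10 genes in each library, in CPM on a log2 axis, against time in LPS. Points are libraries (4 WT in blue, 3 labelled Nur77-KO in red, side by side at each time) and lines join the group means; Ccnd2 and Cdkn1a peak at 4 h, and Ccnd1 separates the genotypes at 0 and 4 h and not at 18 h.

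LPS changed most members, as it changed most genes. In WT cells at 4 h, 4 members were higher (percent of all genes tested: 35.1) and 5 lower (43 of all genes), and at 18 h against 0 h 4 were higher (34.8) and 5 lower (36.3). From 4 h to 18 h, 4 rose (37.2) and 5 fell (34.5). In labelled-KO cells 5 were higher (33.5) and 5 lower (41.5) at 4 h, 6 higher (34.5) and 2 lower (38.5) at 18 h against 0 h, and 4 higher (33.3) and 5 lower (32.1) at 18 h against 4 h. Read against these backgrounds, the number of members called over time sets them apart from other genes in no comparison. Between the genotypes, 4 members were lower and none higher in labelled-KO cells before LPS, where 2.87% of all genes were lower and 1.11% higher. At an unadjusted p under 0.05 in edgeR, 5 were lower and none higher, and DESeq2 called 4 lower and limma-voom 5, with none higher in either. At 4 h 1 member was lower (2.7% of all genes) and none higher (2.87%), with 2 and 1 at an unadjusted p under 0.05, and DESeq2 and limma-voom each called 1 lower and 1 higher. At 18 h 3 were higher (16.6%) and none lower (15.6%), with 3 and 2 at an unadjusted p under 0.05 and 3 and 0 called by DESeq2 and by limma-voom. The count of lower members at 18 h became 1 without library 3 of either genotype at that time, and of higher members at 4 h 1 without WT library 1. The LPS response differed between the genotypes in 2 members at 4 h, where 0.798% of all genes did in either direction, and in 5 at 18 h, where 17.6% did. Comparisons with 0 h within a genotype share their 0 h libraries with the genotype comparison before LPS, and those of 18 h with 4 h share theirs with the genotype comparisons at those times.

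Ccnd1, whose product is the CSF1-responsive partner of Cdk4 and Cdk6, was the dominant D-type cyclin transcript of cells without LPS (chr7:144929931-144939831, mm10). Its levels before LPS were 86.7, 100.1, 96.4 and 101 CPM in WT libraries 1 to 4 and 38.2, 42.2 and 41.3 CPM in labelled-KO libraries 2 to 4. Every labelled-KO library lay below every WT library. The difference was -1.24 ± 0.08 (log2, SE; edgeR adjusted p = 4.2e-09). At 4 h WT libraries were at 55.8, 56.8, 55.9 and 57.1 CPM and labelled-KO libraries at 33.2, 36.9 and 31.9 CPM, a difference of -0.73 ± 0.09 (edgeR adjusted p = 1.5e-05) with all WT libraries again above all labelled-KO ones. At 18 h both genotypes were high and overlapped, with 215, 239, 271 and 241 CPM in WT and 277, 236 and 265 CPM in labelled-KO libraries, and the difference was 0.11 ± 0.08 (edgeR adjusted p = 0.33). Ccnd1 fell by 0.77 ± 0.08 at 4 h in WT cells and then rose, to 1.33 ± 0.07 above its 0 h level at 18 h. In labelled-KO cells it fell by 0.26 ± 0.09 at 4 h and stood 2.68 ± 0.09 above 0 h at 18 h, 6.40-fold against 2.52-fold in WT cells. That response at 18 h differed between genotypes by 1.35 ± 0.11 (edgeR adjusted p = 2.4e-07). The fall at 4 h in labelled-KO cells lost its call without library 4 of that group (-0.21), with median-of-ratios factors (-0.16) and with DESeq2 (-0.16). The difference in response at 4 h, 0.51 ± 0.12 (edgeR adjusted p = 0.042), lost its call in 13 of 14 leave-one-out fits (0.45 to 0.55).

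Ccnd2, the D-type cyclin gene that LPS raised most, went from the lowest to the highest of the 3 (chr6:127125162-127152188). Before LPS it was at 7.24, 8.14, 8.32 and 6.84 CPM in WT and 4.82, 4.93 and 8.52 CPM in labelled-KO libraries, and labelled-KO library 4 lay above every WT library while the other two lay below them. At 4 h it reached 676, 650, 681 and 669 CPM in WT and 616, 764 and 701 CPM in labelled-KO libraries. The rise was 87.6-fold in WT cells (log2 6.45 ± 0.15, edgeR adjusted p = 1.7e-19) and 112-fold in labelled-KO cells (6.81 ± 0.18, edgeR adjusted p = 2.0e-18), and the genotypes overlapped. By 18 h it had come down to 119, 123, 134 and 128 CPM in WT libraries but only to 214, 202 and 243 CPM in labelled-KO ones. All labelled-KO libraries were above all WT libraries at that time, by 0.80 ± 0.12 (1.75-fold, edgeR adjusted p = 6.1e-05), and the response at 18 h differed between genotypes by 1.11 ± 0.19 (edgeR adjusted p = 0.00062). The difference before LPS, -0.30 ± 0.15 (edgeR adjusted p = 0.33), passed without labelled-KO library 4 (-0.64), and so did the difference in response at 4 h (0.36 ± 0.19, or 0.68 without that library).

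Ccnd3, a D-type cyclin gene that passed between the genotypes at no time, rose late (chr17:47505051-47599689). Its levels ran from 10.7 to 13.7 CPM before LPS, 8.69 to 12.0 at 4 h and 36.8 to 45.6 at 18 h in WT libraries. In labelled-KO libraries they ran from 12.5 to 15.1, from 5.84 to 10.5 and from 30.7 to 35.3 CPM. At 18 h all labelled-KO libraries lay below all WT libraries, by -0.28 ± 0.13, which did not pass (edgeR adjusted p = 0.11). The 18 h libraries stood above all others in both genotypes, at 1.72 ± 0.13 (WT) and 1.34 ± 0.15 (labelled KO) over 0 h, with edgeR adjusted p = 7.6e-11 and 5.4e-08. The fall at 4 h was 0.61 ± 0.16 in labelled-KO cells (edgeR adjusted p = 0.0019) and was marginal in WT cells (-0.30 ± 0.13, edgeR adjusted p = 0.045), where the groups overlapped. That WT call ended in 6 of 8 fits without 1 library (-0.31 to -0.22), those without library 2, 3 or 4 at 0 h or at 4 h, and with a replicate block (-0.30, edgeR adjusted p = 0.058).

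Counted per kilobase, the D-type pool changed its make-up more than its size between 4 and 18 h. The 3 transcripts summed to 32.8 ± 2.27 CPM per kb (SD, n = 4) in WT and 18.1 ± 0.185 (SD, n = 3) in labelled-KO cells before LPS. At 4 h the sums were 125.6 ± 2.39 and 122.8 ± 13.3, and at 18 h 103.9 ± 7.76 and 120.1 ± 9.07. Before LPS Ccnd1 made up 78.3% ± 1.03 (SD) of the pool in WT cells and 59.8% ± 3.25 in labelled-KO cells, where Ccnd3 made up 34.9% ± 3.96 against 18.0% ± 0.909. Ccnd2 took 84.2% ± 0.370 of the pool in WT and 89.3% ± 0.211 in labelled-KO cells at 4 h. At 18 h Ccnd1 led again with 62.1% ± 1.83 and 57.8% ± 1.63, and Ccnd2 held 19.2% ± 0.410 in WT and 28.9% ± 1.65 in labelled-KO cells.

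**Figure D2:**
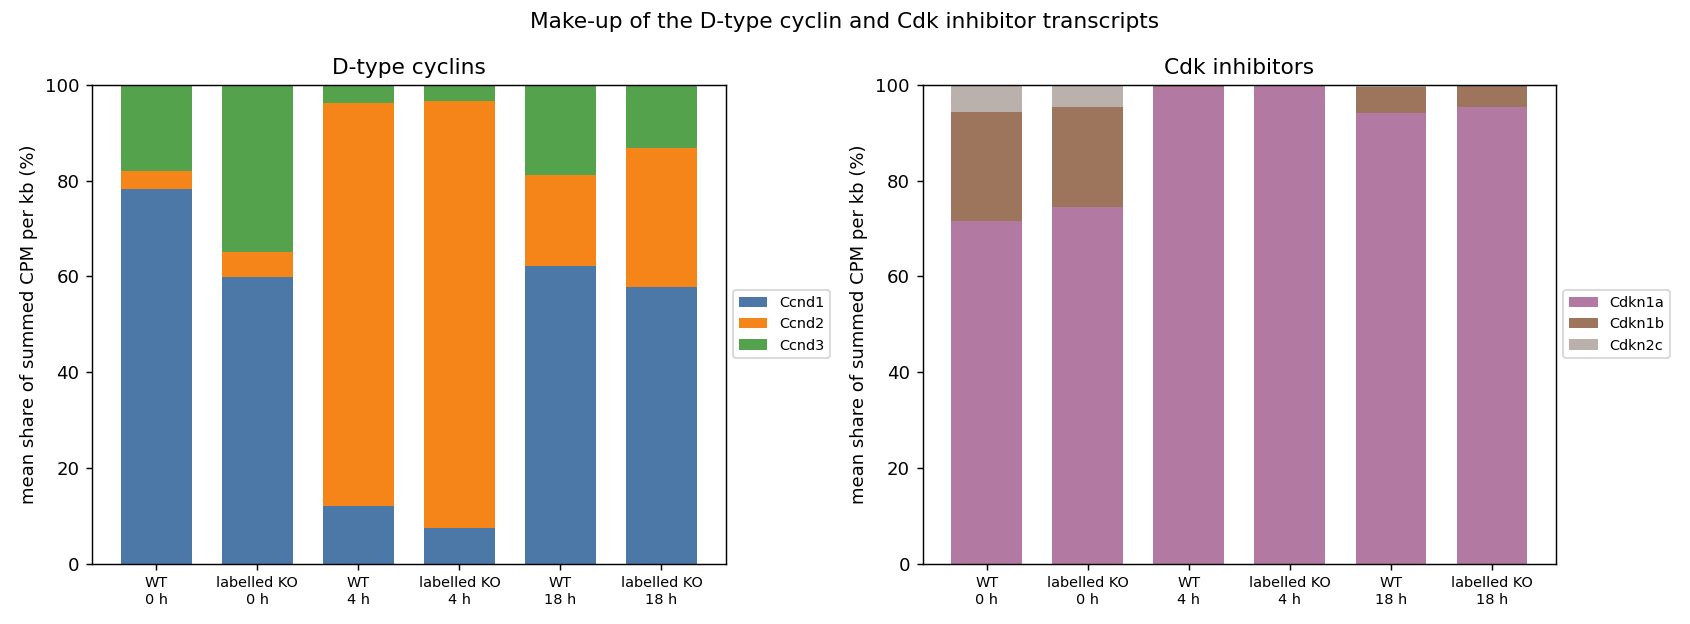
Mean share (%) of each transcript in the summed CPM per kb of the 3 D-type cyclins (left) and of the 3 Cdk inhibitors (right) in each of the 6 groups (4 WT or 3 labelled-KO libraries each). Ccnd1 leads the D-type cyclins at 0 and 18 h and Ccnd2 at 4 h, and Cdkn1a is the largest part of the inhibitor sum in all 6 groups.

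Ccne1, which encodes the Cdk2 partner cyclin E1, was scarce and differed between the genotypes in both directions (chr7:38097984-38107490). Before LPS it was at 1.62, 2.79, 2.58 and 2.25 CPM in WT libraries and 1.11, 1.38 and 0.704 CPM in labelled-KO libraries, 19 to 77 counts each. The labelled-KO libraries were all lower, by -1.13 ± 0.26 (edgeR adjusted p = 0.014). At 4 h the order was turned, with 7.25, 6.19, 5.12 and 5.02 CPM in WT and 8.18, 10.9 and 9.37 CPM in labelled-KO libraries. That difference, 0.68 ± 0.22, did not pass (edgeR adjusted p = 0.066), although no library overlapped, and passed without WT library 1 (0.81), with DESeq2 (0.70) and with limma-voom (0.70). At 18 h WT libraries were back at 1.95, 2.78, 1.61 and 2.61 CPM while labelled-KO libraries held 5.66, 3.77 and 5.19 CPM, higher by 1.09 ± 0.24 (edgeR adjusted p = 0.0015). The rise at 4 h was 1.36 ± 0.21 in WT and 3.17 ± 0.27 in labelled-KO cells on the log2 scale, a difference in response of 1.81 ± 0.34 (edgeR adjusted p = 0.0086), and at 18 h the difference in response was 2.22 ± 0.35 (edgeR adjusted p = 0.00025). The lower level before LPS enters both responses, and its call ended without labelled-KO library 4 (-0.87). The WT rise at 4 h, 1.36 ± 0.21, did not pass with library totals and no factors (0.38).

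Ccne2, the gene of cyclin E2, was 1.96-fold lower before LPS in labelled-KO cells (chr4:11190433-11204779). It was at 8.44, 6.37, 6.26 and 6.66 CPM in WT libraries and 3.87, 3.25 and 3.52 CPM in labelled-KO libraries, which did not overlap (-0.97 ± 0.19, edgeR adjusted p = 0.0027). Levels at 4 h overlapped between genotypes, at 11.1, 9.66, 11.2 and 7.61 CPM in WT and 8.18, 10.1 and 9.75 CPM in labelled-KO cells. At 18 h they were 3.30, 4.50, 4.18 and 3.63 CPM in WT and 3.57, 6.92 and 4.55 CPM in labelled-KO libraries, where library 3 stood apart as the highest. The WT level fell by 0.83 ± 0.17 from 0 to 18 h (edgeR adjusted p = 0.00021), and the labelled-KO level was 0.50 ± 0.21 higher (edgeR adjusted p = 0.041), a difference in response of 1.33 ± 0.27 (edgeR adjusted p = 0.0024). The labelled-KO rise at 18 h ended without library 3 of that group (0.20) and without library 3 or 4 at 0 h (0.45 and 0.49). With library totals and no factors it was -0.23, and the WT change at 4 h, 0.50 ± 0.16 with TMM factors, was -0.48, so both directions over time depend on the scaling. Ccne2 shares 609 exonic bases of its 2908 with the gene Ints8 on the other strand, and the sources used here do not say whether counting used strand. Ints8 had 322 to 1058% of Ccne2's counts and rose by 1.70 ± 0.07 in WT and 1.86 ± 0.08 in labelled-KO cells at 4 h, beside rises of 0.50 ± 0.16 and 1.40 ± 0.20 for Ccne2, so the part of Ints8 in the Ccne2 rise was not tested. Between genotypes before LPS Ints8 was at -0.15 ± 0.07 (edgeR adjusted p = 0.30).

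Other members also overlap genes of the opposite strand and are uncertain to that extent. Ccnd1 shares 1100 of 3740 exonic bases with LTO1, which had 21.7 to 38.5% of its counts and moved with it (-0.79 ± 0.09 between genotypes before LPS). Ccnd3 shares 353 of 2113 bases with Bysl, which had 28.8 to 90.9% of its counts and was lower in labelled-KO cells at 18 h (-0.64 ± 0.12). Like Ccnd3, Bysl fell at 4 h (-0.47 ± 0.12 in WT and -0.71 ± 0.15 in labelled-KO cells) and was higher at 18 h than at 0 h (0.98 ± 0.11 and 0.35 ± 0.13), and its part in the Ccnd3 changes was not tested. Rb1 shares 105 of 4656 bases with Rcbtb2, which had 19.2 to 310% of its counts. Rcbtb2 fell 5.26-fold in WT and 4.19-fold in labelled-KO cells at 4 h, beside the falls of Rb1, and its part in them was not tested. Ccnd2 shares 372 of 6330 bases with Gm43126 and Cdkn1a 93 of 1913 with AC167363.2. No exonic overlap was found for Ccne1, Cdkn1b, Cdkn2c or Myc.

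**Figure D3:**
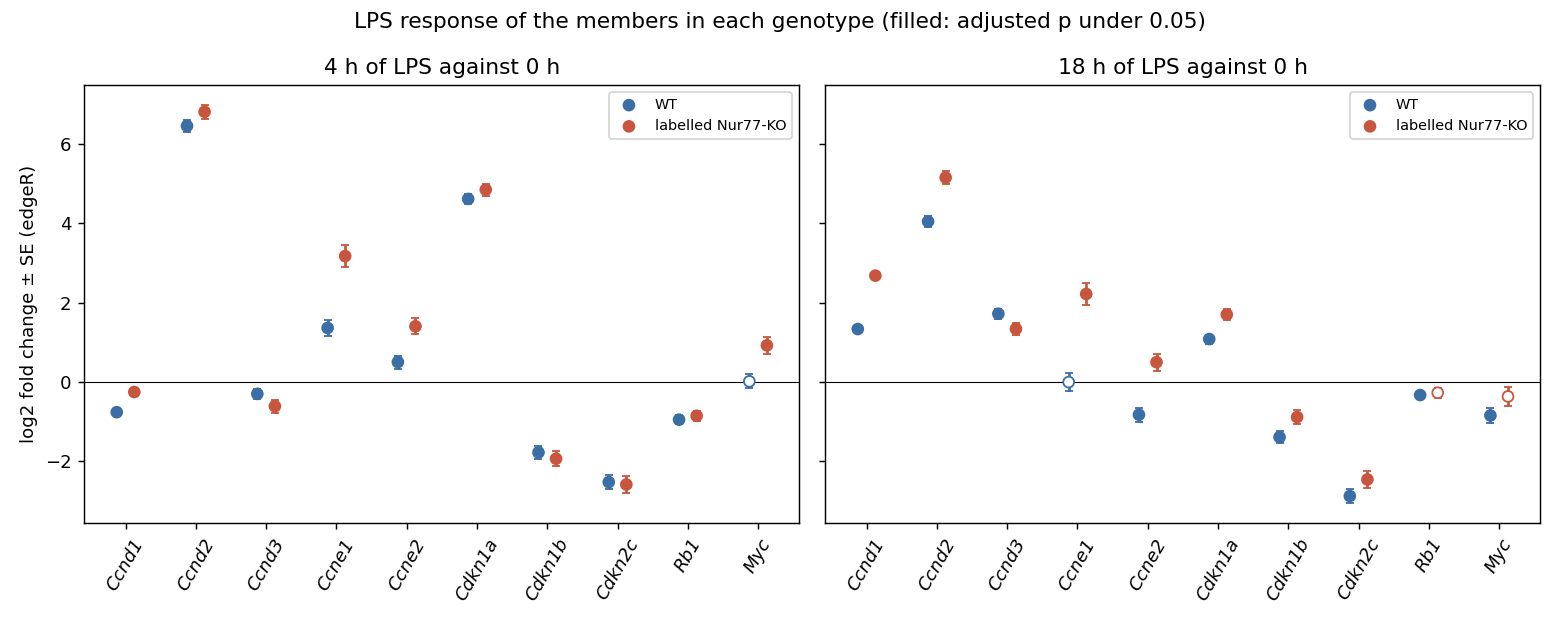
Log2 fold change ± SE (edgeR) of each gene at 4 h (left) and 18 h (right) of LPS against 0 h in WT (blue) and labelled Nur77-KO (red) cells; filled points had an adjusted p under 0.05. Ccnd2 and Cdkn1a rise furthest at 4 h, Ccnd2 rises furthest at 18 h, Cdkn1b and Cdkn2c fall in both genotypes, and the responses at 18 h differ between the genotypes by the test for Ccnd1, Ccnd2, Ccne1, Ccne2 and Cdkn1a.

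The 3 Cdk inhibitors answered LPS in opposite directions. Promoters of the Cip/Kip pair, Cdkn1a and Cdkn1b, are shown because one rose and the other fell at 4 h. They are the 250 bases before the RefSeq start (GRCm38.p6, 5′ to 3′ on the plus strand, at chr17:29093519-29093768 and chr6:134920151-134920400). The RefSeq promoter table matched 5 of the 10 members. The Cdkn1a window is that of the transcript counted here, and the gene has another RefSeq start upstream, at the start of the gene, whose window is not printed. The other Cdkn1a transcript in the counts had 0.985 of the mean count of the one kept. Which start the RNA came from was not tested. Capitals mark 3 kinds of motif on either strand. The GC box, bound by Sp1, was searched as GGGCGG. The CCAAT box was searched by the letters of its name. The TATA box was searched as TATAAA or with its last letter replaced by G.
Cdkn1a: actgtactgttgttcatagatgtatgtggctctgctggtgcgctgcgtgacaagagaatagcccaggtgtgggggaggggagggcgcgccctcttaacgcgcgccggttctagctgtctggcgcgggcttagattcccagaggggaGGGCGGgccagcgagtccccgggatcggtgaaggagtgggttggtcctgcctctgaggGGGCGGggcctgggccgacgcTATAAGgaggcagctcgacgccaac
Cdkn1b: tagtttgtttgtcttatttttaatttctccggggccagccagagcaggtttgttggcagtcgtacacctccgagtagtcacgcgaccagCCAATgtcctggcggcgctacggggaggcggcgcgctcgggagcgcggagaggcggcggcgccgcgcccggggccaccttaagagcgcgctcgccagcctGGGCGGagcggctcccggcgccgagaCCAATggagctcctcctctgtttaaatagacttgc
The Cdkn1a window holds 2 GC boxes and a TATA box that ends 20 bases before the start. The Cdkn1b window holds 1 GC box and 2 CCAAT boxes and no TATA box. Of 32851 RefSeq promoters of this length, 32.7% held a GC box, 33.8% a CCAAT box and 17.0% a TATA box. Neither window held an E-box (CACGTG; 6.02% of promoters) or a match to the NF-kB motif (7.25%), which says only that these letters are not in these 250 bases. GC content was 64.8% in the Cdkn1a window and 64.4% in the Cdkn1b window, against a median of 52.4% for all promoters.

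Cdkn1a, the gene of p21, was at 138, 119, 128 and 124 CPM in WT and 138, 106 and 125 CPM in labelled-KO libraries before LPS, with the groups overlapping (chr17:29090979-29100722). At 4 h it stood at 2409, 3280, 3399 and 3360 CPM in WT and 3553, 3755 and 3289 CPM in labelled-KO libraries, with WT library 1 the lowest of all. The rise was 24.4-fold (4.61 ± 0.13, edgeR adjusted p = 3.4e-18) and 28.7-fold (4.85 ± 0.15, edgeR adjusted p = 3.2e-17), and the genotype difference at 4 h was 0.18 ± 0.12 (edgeR adjusted p = 0.42). At 18 h levels had dropped to 223, 273, 283 and 297 CPM in WT and 370, 401 and 424 CPM in labelled-KO libraries, so every labelled-KO library was above every WT library. That difference was 0.57 ± 0.12 (1.48-fold, edgeR adjusted p = 0.0012). The response at 18 h differed by 0.62 ± 0.17 (edgeR adjusted p = 0.017), a call that ended without labelled-KO library 3 at 0 h (0.52) and with library totals and no factors (0.41).

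Cdkn1b, the gene of p27, which accumulates in resting cells, fell in both genotypes (chr6:134920401-134925525). WT libraries ran from 42.8 to 65.2 CPM before LPS, 10.7 to 18.1 at 4 h and 16.5 to 21.8 at 18 h, and labelled-KO libraries from 40.6 to 43.6, 9.88 to 12.9 and 19.1 to 27.9 CPM. Every LPS library was below every 0 h library, by 1.78 ± 0.16 on the log2 scale (edgeR adjusted p = 1.1e-09) in WT and 1.94 ± 0.19 (edgeR adjusted p = 8.3e-09) in labelled-KO cells at 4 h. The partial return from 4 to 18 h was 1.05 ± 0.20 in labelled-KO cells (edgeR adjusted p = 8.7e-05). In WT cells it was 0.39 ± 0.16 (edgeR adjusted p = 0.039), and this call ended without WT library 2 or 4 at 4 h (0.27 and 0.32) or without WT library 2 or 3 at 18 h (0.32 and 0.34).

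Cdkn2c, the gene of the INK4 inhibitor p18, fell furthest of the 10 (chr4:109660876-109666756). It was at 12.3 to 13.2 CPM in WT and 9.52 to 10.7 CPM in labelled-KO libraries before LPS, and at 1.22 to 3.26 CPM in all LPS libraries of both genotypes. The falls at 4 h were 5.77-fold in WT (-2.53 ± 0.17, edgeR adjusted p = 1.6e-11) and 6.01-fold in labelled-KO cells (-2.59 ± 0.22, edgeR adjusted p = 7.0e-10), and at 18 h the log2 changes from 0 h were -2.88 ± 0.18 and -2.46 ± 0.21. The WT change from 4 to 18 h, -0.35 ± 0.20 (edgeR adjusted p = 0.13), passed without WT library 4 at 4 h (-0.49). Before LPS the labelled-KO libraries were all below the WT ones, by -0.37 ± 0.16, which did not pass (edgeR adjusted p = 0.26) but did with limma-voom (-0.38) and with only the 0 h libraries fitted (-0.38). In the summed inhibitor transcripts per kb, Cdkn1a thereby went from 71.6% ± 1.86 (SD) in WT and 74.6% ± 1.79 in labelled-KO cells to 99.6% ± 0.168 and 99.7% ± 0.0238 at 4 h.

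Rb1, whose product holds E2F factors in check, passed between the genotypes at no time (chr14:73192858-73325951). WT libraries ran from 100.1 to 133 CPM before LPS, 54.1 to 68.8 at 4 h and 88.9 to 103 at 18 h, and labelled-KO libraries from 117 to 140, 69.6 to 72.2 and 86.3 to 131 CPM. At 4 h Rb1 was lower in every library of both genotypes, by -0.95 ± 0.11 (edgeR adjusted p = 1.2e-07) in WT and -0.86 ± 0.13 (edgeR adjusted p = 5.1e-06) in labelled-KO cells. At 18 h against 0 h the change was -0.33 ± 0.11 in WT (edgeR adjusted p = 0.011) and -0.28 ± 0.13 in labelled-KO cells (edgeR adjusted p = 0.062). The latter passed without labelled-KO library 3 at 18 h (-0.46) or library 2 at 0 h (-0.33), and with the replicate block (-0.29).

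Myc was 2.08-fold lower in labelled-KO cells before LPS (chr15:61985341-61990361). Its levels were 7.77, 9.41, 6.26 and 9.94 CPM in WT and 3.65, 4.58 and 3.78 CPM in labelled-KO libraries. The groups did not overlap (-1.06 ± 0.19, edgeR adjusted p = 0.0018). At 4 h both genotypes were in one range, with 6.76, 9.28, 9.51 and 8.29 CPM in WT and 5.95, 9.13 and 7.65 CPM in labelled-KO libraries (-0.15 ± 0.20, edgeR adjusted p = 0.73). At 18 h they were at 4.94, 4.77, 4.02 and 4.70 CPM in WT and 1.92, 3.94 and 3.41 CPM in labelled-KO libraries, all of the latter lower but without passing (-0.58 ± 0.22, edgeR adjusted p = 0.052). That difference passed without labelled-KO library 3 at 18 h (-0.78) or WT library 3 (-0.63), and with a replicate block (-0.63). From 0 to 4 h the Myc difference in WT cells was 0.01 ± 0.17 (edgeR adjusted p = 0.95), and Myc rose by 0.92 ± 0.22 in labelled-KO cells (edgeR adjusted p = 0.00063), but the difference between these responses did not pass (0.91 ± 0.28, edgeR adjusted p = 0.17). With library totals and no factors the values at 4 h were -0.96 in WT, which passed, and -0.039 in labelled-KO cells, so the direction over time depends on the scaling.

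**Figure D4:**
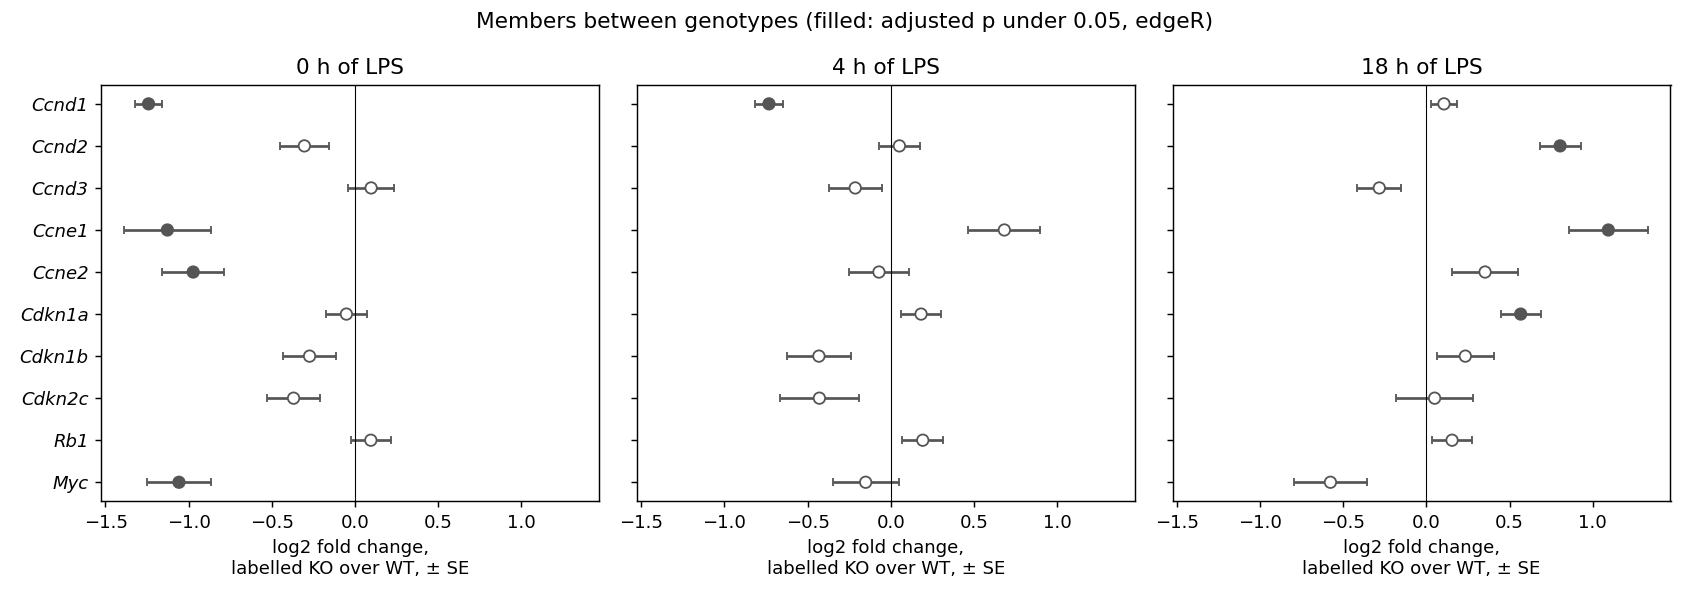
Log2 fold change ± SE (edgeR) of labelled Nur77-KO over WT cells for each gene at 0, 4 and 18 h of LPS; filled points had an adjusted p under 0.05. Ccnd1, Ccne1, Ccne2 and Myc are lower before LPS, Ccnd1 alone passes at 4 h (lower), and Ccnd2, Ccne1 and Cdkn1a are higher at 18 h.

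Markers of other cells moved with the genotype comparisons. Of 16 stromal markers that passed the filter (of 18), 1 was higher in labelled-KO cells before LPS, none at 4 h and 13 at 18 h. Their summed level ran from 7.03 to 197 CPM in WT and 187 to 326 CPM in labelled-KO libraries before LPS, from 37.6 to 127 and 76.2 to 771 CPM at 4 h, and from 37.4 to 106 and 81.8 to 1148 CPM at 18 h. All 18 were above 0 in every group except Lum, which was at 0 in labelled-KO cells before LPS. With their mean as a covariate, the calls between genotypes at 0 h stayed, at -1.24 for Ccnd1, -1.18 for Ccne1, -1.05 for Ccne2 and -1.16 for Myc, as did those of Ccnd1 at 4 h (-0.73) and of Ccnd2, Ccne1 and Cdkn1a at 18 h (0.71, 1.04 and 0.60). With the most stromal library of each group left out (the one with the highest mean of these markers), Ccne1 (-0.76) and Myc (-0.95) lost their calls at 0 h, Ccnd2 gained one (-0.61), and Ccnd1 (-1.23) and Ccne2 (-1.01) kept theirs. In the same fit Ccnd1 at 4 h (-0.68) and the 3 members called at 18 h (0.76, 0.93 and 0.54) kept theirs, whereas Ccne1 at 4 h (1.47) and Cdkn1a at 18 h (0.64) lost the call of a different LPS response. Neutrophil and precursor markers were higher in 8 of the 9 that passed before LPS, 1 at 4 h and 6 at 18 h. Their sums in WT and labelled-KO libraries were 28.3 to 49.1 and 79.2 to 135 CPM at 0 h, 98.3 to 150 and 144 to 203 CPM at 4 h and 190 to 277 and 328 to 462 CPM at 18 h. Most of the sums at 18 h was Lcn2, at group means of 182 (WT) and 291 CPM (labelled KO), from 1.53 and 6.61 CPM at 0 h. The next largest marker at 18 h, S100a9, was at 13.4 and 35.8 CPM. The rise of Lcn2 with LPS therefore enters the sums. Elane and Ctsg, which mark neutrophil precursors, were at most at 0.0290 CPM in any group mean, and Mpo at most at 0.153 CPM. The part of neutrophil RNA in the members' differences was not tested. Lymphocyte markers summed to at most 3.26 CPM in any library.

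The other genes of the pathway were taken from lists by function, which were also chosen with earlier results of these data known. Their counts between genotypes are read against the shares of all genes higher and lower in labelled-KO cells, 1.11 and 2.87% at 0 h, 2.87 and 2.7% at 4 h and 16.6 and 15.6% at 18 h. Among the Cdk4, Cdk6 and Cdk2 kinases and their regulators, 3 of 17 rose and 11 fell in WT cells at 4 h (all genes 35.1 and 43%). Cdc25b, a phosphatase that activates Cdks, fell from 14.3 to 0.623 CPM (-4.55 ± 0.28), and Skp2, which targets p27 for degradation, fell from 10.3 to 1.08 CPM (-3.22 ± 0.14). Cdc37, a chaperone that loads Cdk4 onto Hsp90, rose (0.84 ± 0.08), but stood at -0.14 with library totals and no factors, where none of the 17 rose and 16 fell. Between the genotypes 1 was higher and 1 lower before LPS, none and 2 at 4 h, and 1 and 3 at 18 h. With the most stromal library of each group left out these became none and none at 0 and 4 h and 1 and 0 at 18 h. With library totals and no factors 0 were higher and 8 lower at 18 h, and with the stromal covariate 1 and 1. The lower count at 18 h was 1 without labelled-KO library 4 and 5 without labelled-KO library 3. The higher count at 0 h was 0 without library 2, 3 or 4 of either genotype, and the lower count at 4 h was 1 without labelled-KO library 2, 3 or 4 or WT library 2 or 4. Cdk1, the kinase of mitosis, was the lower one before LPS (-0.76 ± 0.14), which lost its call with the most stromal library of each group left out (-0.64). Of 6 other Cdk inhibitors or inhibitor-linked genes tested, none passed between genotypes at 0 or 4 h in edgeR, DESeq2 or limma-voom. At an unadjusted p under 0.05 in edgeR, 2 were lower at 0 h, and 1 was higher and 1 lower at 4 h, where 1 passed without WT library 1. Cdkn2d, the gene of the INK4 inhibitor p19, went opposite to Cdkn2c: it rose from 4.58 to 18.6 CPM in WT cells at 4 h (2.03 ± 0.16) and was higher in labelled-KO cells at 18 h, at 27.9 against 15.4 CPM (0.87 ± 0.16). The other 2 that passed at 18 h were lower and were named after their values were seen. They were Cdkn1c, the gene of the Cip/Kip inhibitor p57, at -2.38, and Cdkn2aipnl at -0.36. Neither met the rule used for the other named genes, of non-overlapping groups and a mean of at least 5 CPM. The lower count was 1 with DESeq2 and limma-voom, 1 without labelled-KO library 3 or WT library 2, 3 or 4, and 0 without labelled-KO library 2 or 4, with the stromal covariate or with the most stromal libraries left out.

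Among pocket proteins, E2F and DP factors, 6 of 17 rose and 8 fell in WT cells at 4 h (all genes 35.1 and 43%). The median was -0.24 beside -0.17 for all genes, and 3 rose and 13 fell with library totals and no factors. Rbl1, the gene of the pocket protein p107, rose from 25.2 to 277 CPM (3.45 ± 0.09) and E2f8, a repressor of E2F targets, from 6.20 to 52.8 CPM (3.08 ± 0.10), opposite to Rb1. Between genotypes before LPS, 3 of the 17 were lower in labelled-KO cells and none higher: Rbl1 (-0.39 ± 0.10) and, named after their values were seen, E2f7 (-1.53) and E2f8 (-1.30). E2f7 and E2f8 did not meet the rule for naming, and E2f8 was at 2.54 against 6.20 CPM. Over the 7 fits without 1 library the lower count was 1 to 2. It was 1 without labelled-KO library 3, without WT library 1 or 2, or with the most stromal libraries left out. Rbl1 lost its call in each of these fits (-0.285, -0.345, -0.34 and -0.382). At 18 h Rbl1 was higher in labelled-KO cells, at 123 against 73.4 CPM (0.75 ± 0.09), while E2f1 was lower (-0.67 ± 0.10). Of 30 S phase genes driven by E2F, 18 were lower and none higher in labelled-KO cells before LPS, with a median of -0.70 (all genes 0.01). At an unadjusted p under 0.05, 25 were lower and none higher, and DESeq2 called 20 lower and limma-voom 22. The count was 11 without labelled-KO library 4, 9 with the most stromal libraries left out and 15 with the stromal covariate. Without labelled-KO library 4, 22 were lower and 0 higher at an unadjusted p under 0.05 in edgeR, with a median of -0.646. Uhrf1, which maintains DNA methylation at replication, was at 3.74 against 12.3 CPM (-1.72 ± 0.20), and Mcm5, part of the replicative helicase, at 7.56 against 20.1 CPM (-1.41 ± 0.14). At 4 h 8 and at 18 h 13 of the 30 were lower and none higher, with medians of -0.45 and -0.35, among them Mcm2 at 18 h (-1.71 ± 0.14). At an unadjusted p under 0.05, 1 of the 30 was higher at either time. With the most stromal libraries left out the counts were 3 and 10, and with the stromal covariate 6 and 11. Over the 7 fits without 1 library the count at 4 h was 4 to 7, with 4 without labelled-KO library 4 and 5 without WT library 4. Of 25 G2 and mitosis genes, 22 were lower and none higher before LPS, with a median of -1.29, including Cenpf, a kinetochore gene, at 2.39 against 9.64 CPM (-2.02 ± 0.32). That count was 13 without labelled-KO library 4 and also with the most stromal libraries left out. Without labelled-KO library 4, 25 were lower and 0 higher at an unadjusted p under 0.05 in edgeR, with a median of -1.17. At 18 h 6 were higher and 3 lower (median 0.40). Over the 7 fits without 1 library, 3 to 6 were higher and 0 to 2 lower. These counts were 3 and 0 without labelled-KO library 2, 6 and 0 without labelled-KO library 3, and 4 and 1 without WT library 4. Without the most stromal libraries they were 4 and 2 (median -0.02), and with the stromal covariate 3 and 2 (median 0.0045). DESeq2 gave 6 and 0, and limma-voom 5 and 0. Among the higher genes was Tpx2, a spindle assembly gene, at 119 against 73.0 CPM (0.70 ± 0.15). Tpx2 ran against its list with LPS. From 0 to 18 h it rose by 2.25 ± 0.15 in WT and 4.12 ± 0.19 in labelled-KO cells. It was the 1 gene of the 25 that was higher in each genotype, while 24 and 20 were lower. The LPS response at 18 h was higher in labelled-KO cells for 17 of the 25 (10 without the stromal libraries), and the low 0 h values of these cells enter each of them.

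LPS lowered 23 of the 30 S phase genes and raised 3 at 4 h in WT cells (median -1.13). It lowered 21 and raised 3 of the 25 G2 and mitosis genes (median -1.80). Of all genes 43% fell and 35.1% rose, with a median of -0.17. Dnmt1, the maintenance DNA methyltransferase, fell from 86.1 to 15.4 CPM (-2.48 ± 0.07) and Kif23, a cytokinesis motor, from 12.2 to 0.721 CPM (-4.06 ± 0.23). Pcna, the sliding clamp of DNA polymerases, rose (0.72 ± 0.09) but was lower with library totals and no factors (-0.25), where 1 of the 30 rose and 28 fell. Of the G2 and mitosis genes, Tpx2 rose from 15.4 to 75.9 CPM (2.30 ± 0.15) and Mki67, which marks cycling cells, from 72.3 to 186 CPM (1.37 ± 0.14). At 18 h Mki67 was below its 0 h level in labelled-KO cells, at 11.1 against 27.9 CPM (-1.34 ± 0.18).

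Mxd1 and Mnt, both rivals of Myc for its partner Max, changed strongly with LPS. Of 13 tested genes of the Max and Mxd network, 8 rose and 5 fell at 4 h in WT cells (all genes 35.1 and 43%). Their median was 0.46. With upper-quartile factors, however, 5 rose and 5 fell, and with library totals and no factors 4 rose and 8 fell (median -0.51). Mxd1 rose from 32.2 to 474 CPM (3.88 ± 0.11), and Mnt, another Max-binding repressor, fell from 69.1 to 3.12 CPM (-4.47 ± 0.14). Between genotypes none of the 13 passed at 0 or 4 h in edgeR, with 1 higher at each time at an unadjusted p under 0.05 and 1 called higher at 4 h by DESeq2 and also by edgeR without WT library 1. At 18 h 4 were higher in labelled-KO cells and none lower, but 2 and 3 with library totals and no factors. The higher genes included Mxd1 at 974 against 383 CPM (1.35 ± 0.10) and Mxi1 at 21.4 against 7.20 CPM (1.57 ± 0.15). Of 25 growth genes that Myc drives, none passed between genotypes before LPS in edgeR, with 5 lower at an unadjusted p under 0.05 and 1 called lower by DESeq2 and by limma-voom, and the median was -0.07. At 18 h 20 of the 25 were lower in labelled-KO cells and none higher, with a median of -0.68 (all genes -0.01), such as Rrp9, a ribosomal RNA processing gene (-1.04 ± 0.19), and Ppat, an enzyme of purine synthesis (-0.99 ± 0.17). That count was 17 with the most stromal libraries left out and 19 with the stromal covariate.

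Cdkn1a is a textbook target of p53, and most other p53 targets tested fell at 4 h of LPS. The part of p53 in the Cdkn1a rise was not tested. Of 23, 4 rose and 14 fell in WT cells at 4 h (all genes 35.1 and 43%), with a median of -1.24 (all genes -0.17). With library totals and no factors 2 rose and 18 fell. In labelled-KO cells 4 rose and 14 fell at 4 h (all genes 33.5 and 41.5%). At 18 h against 0 h, 7 were higher and 11 lower in WT cells (34.8 and 36.3%). In labelled-KO cells 6 were higher and 10 lower (34.5 and 38.5%). From 4 to 18 h, 11 rose and 6 fell in WT cells (37.2 and 34.5%). In labelled-KO cells 13 rose and 5 fell (33.3 and 32.1%). Mdm2, which encodes the p53 ubiquitin ligase, rose from 92.9 to 255 CPM (1.45 ± 0.08), and Sesn1, a stress-induced sestrin gene, fell from 444 to 8.09 CPM (-5.82 ± 0.22). Between genotypes 1 was higher and 1 lower before LPS, 3 and 1 at 4 h, and 6 and 4 at 18 h (all genes 16.6 and 15.6%), which became 3 and 7 with library totals and no factors and 3 and 3 without the stromal libraries. Plk2, a polo-like kinase gene, was higher at 18 h with Cdkn1a, at 335 against 165 CPM (1.02 ± 0.09), and Sesn1 was lower (-1.47 ± 0.22).

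**Figure D5:**
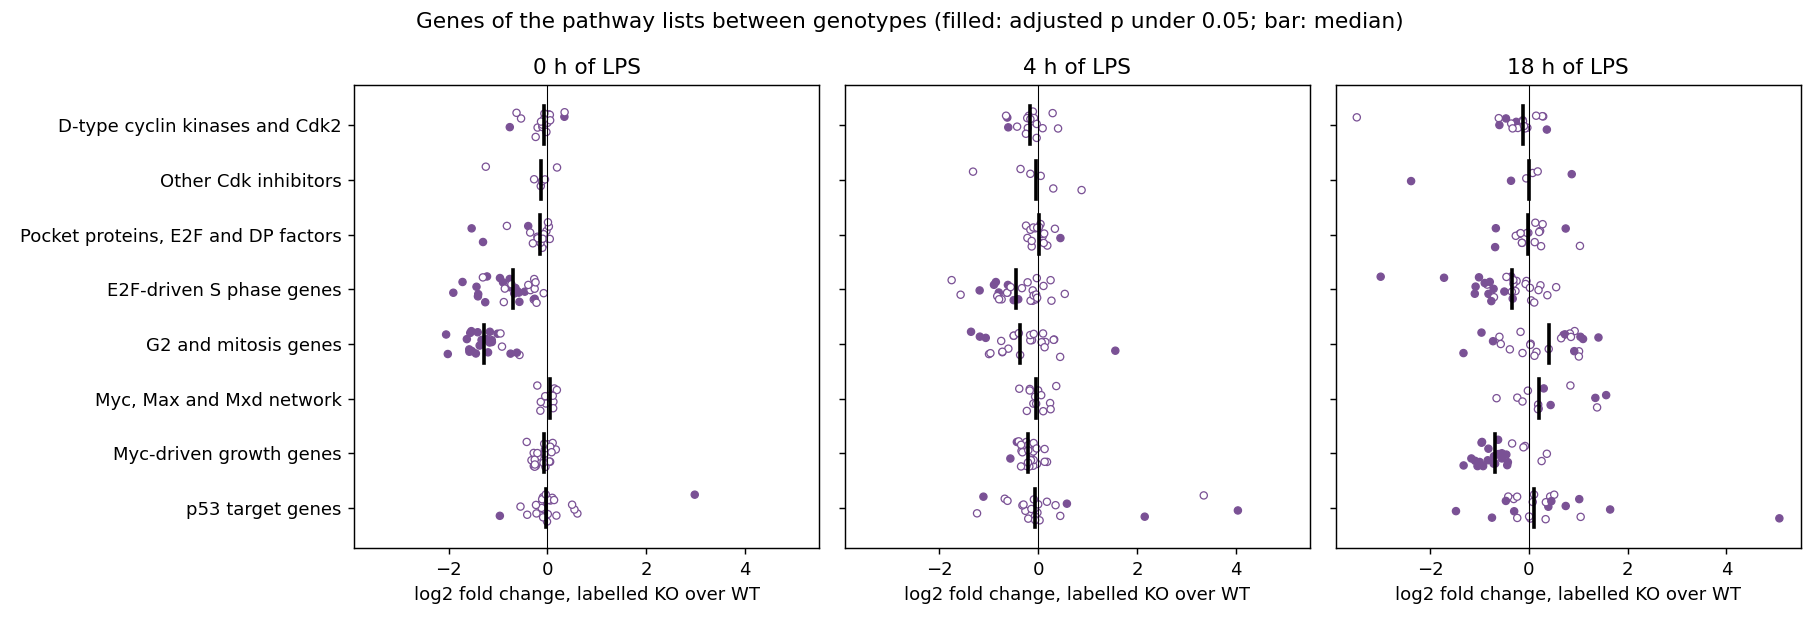
Log2 fold change of labelled Nur77-KO over WT cells for every tested gene of 8 pathway lists at 0, 4 and 18 h of LPS. Each point is a gene, filled where its edgeR adjusted p was under 0.05, and bars mark medians; the S phase and G2 and mitosis lists lie to the left at 0 h, and the Myc-driven growth genes at 18 h.

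The genes most like 3 of the members in log2 CPM over the 21 libraries were found by Pearson's r, given as a description since libraries share groups. Ccnd1 was most like LTO1 (r = 0.990), with which it shares exonic bases, and also like Asph (0.976). Cdkn1a was most like Rela (0.996), Sdc4 (0.995) and Slc39a1 (0.995), and Myc less closely like Zmpste24 (0.882), Cenpe (0.881) and Mad2l1 (0.865).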

How the data were processed

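Per the labels' protocols, RNA was sequenced from 21 macrophage cultures. The deposited table holds expected counts per transcript, in steps of 0.5, which the authors made from reads; the submitters' processing notes name CASAVA 1.8.2, HISAT2 2.1.0 and build mm10, and the sources used here do not name the counting tool or its use of strand. Of 42361 transcript IDs, 42198 were named through RefSeq and 70 through GENCODE; the other 93, without a name, held 0.232 to 2.229% of counts and were left out. Counts were rounded to whole numbers (0.5 upward), the transcript of highest mean count stood for each of 25067 genes, and deposited library totals are larger than the kept ones, which ran from 12301504 to 29650081. The members and lists were chosen with earlier results of these data known.

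All 21 libraries were fitted with 6 group means in edgeR 4.0.16 (R 4.3.3; TMM factors, filterByExpr, quasi-likelihood test, Benjamini-Hochberg adjustment, call at an adjusted p under 0.05), in 11 comparisons. The SE of a log2 fold change is its size over the square root of F. A count test planned for raw counts was applied to the rounded values. It was tested on simulated data, but these were whole counts, so the effect of rounding was not tested. Alternatives used DESeq2 1.42.0, limma 3.58.1, other factors, other filters, blocks and libraries left out. Named list genes passed in the comparison, with non-overlapping groups and a mean of at least 5 CPM, and had the largest changes, up to 2 in each direction. Those said to be named after their values were seen did not meet this rule. No replicate pair agreed within sampling noise (lowest chi-square per degree of freedom 6.74). Library numbers of the labels marked WT 0 h and 4 h samples that deviated together (r of 0.228 to 0.316 over all 4 pairs), so the block value stands beside the WT change at 4 h where it ended a call. Labelled-KO samples of 4 h and 18 h with the same number did so too (r of 0.0956 to 0.502 over 3 pairs). A gene among those most like Ccnd1 is not reported here.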

Additional observations from a re-analysis of the deposited data

Results flagged for a closer look

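In the tests for a library far from its group, run on the 30 combinations of a gene with a group of 4 WT libraries, 1 stood apart: Cdkn1a in WT library 1 at 4 h, the lowest of its group at 2409 CPM. Chance gives about 1 in 20 such groups. Without that library the rise of Cdkn1a at 4 h in WT cells kept its call.

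The LPS response differed between the genotypes by the test of the difference itself in 7 cases (edgeR, log2, labelled KO minus WT). Ccnd1 differed by 0.509 at 4 h and 1.35 at 18 h, Ccne1 by 1.81 and 2.22, and at 18 h Ccnd2 differed by 1.11, Ccne2 by 1.33 and Cdkn1a by 0.618. The 0 h libraries of both genotypes enter each of these values.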

How the results depend on the processing

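Of 110 values (10 genes in 11 comparisons), 69 were called, and 55 kept their call in every alternative that gave a value. Of 2310 alternative values, 2209 kept direction and side of the threshold, 69 lost the call, 28 gained one and 4 reversed, all 4 with library totals and no factors: Ccne2 (-0.48) and Myc (-0.96) at 4 h in WT cells, and Myc at 4 h (-0.039) and Ccne2 at 18 h (-0.23) in labelled-KO cells. That scaling and the replicate block within genotype were chosen after seeing the data. It also gave 5 members between genotypes at 18 h in place of 3. Between genotypes at 4 h DESeq2 and limma-voom gave 2 members in place of 1, and leaving out a library gave 1 to 2. The response at 4 h differed in 1 member in place of 2 with limma-voom, upper-quartile factors, library totals with no factors, no filter, the block within genotype, summed transcripts or the stromal covariate, in 0 with the most stromal library of each group left out, and in 1 to 2 when a library was left out. The cause was not tested.

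With a replicate block, Ccnd3 at 4 h in WT cells lost its call (-0.30, edgeR adjusted p = 0.058), and Myc between genotypes at 18 h (-0.63, edgeR adjusted p = 0.047) and Rb1 at 18 h in labelled-KO cells (-0.29, edgeR adjusted p = 0.049) gained one. Numbers shared by samples of one genotype went with correlations of -0.121 to 0.502 and across genotypes of -0.525 to 0.164. In labelled-KO cells they were 0.0956 to 0.502 between 4 h and 18 h and 0.021 to 0.197 between 0 h and 4 h. Whether a number marks a shared culture or mouse was not tested. Genotype differences could not be fitted with the block within genotype.

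Over all genes, calls between genotypes fell from 499 to 317, 315 and 314 at 0 h without labelled-KO library 2, 3 or 4. At 4 h they fell from 697 to 382 and 275 without labelled-KO library 2 or 4, to 272 with only those groups, to 414 with the stromal covariate and to 141 without the libraries of highest stromal mean. At 18 h they fell from 4034 to 2674 without labelled-KO library 4, and to 2547 and 2229 with the covariate and without those libraries. Differing responses at 4 h went from 100 to 186 with DESeq2, 62 without labelled-KO library 2 at 0 h or 4 at 4 h and 26 without the stromal libraries, and at 18 h from 2202 to 3415 with library totals and 901 without the stromal libraries. The higher share of calls moved from 45 to 19% (WT, 4 h) and from 51.4 to 20.5% (genotypes, 18 h) with library totals, and from 27.9 to 46.1% (genotypes, 0 h) without the stromal libraries. Before LPS Ccne1 rests on the fewest counts, 19 to 77 per library, and Ccne2 and Myc had 66 to 317 and 69 to 292. Cdkn2c was scarce only after LPS, at 14 to 53 counts per library.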
